A study of Mus musculus with 8 samples.

Results

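The genes described here were 9 members of the Toll-like receptor (TLR) system, the receptors Tlr2, Tlr4, Tlr7, Tlr8, Tlr9 and Tlr13, the co-receptor Cd14 (ENSMUSG00000051439), the adaptor Myd88 and the inhibitory kinase-like protein Irak3. They were chosen by name as sensors of damage signals in the injured kidney, and all 9 were found among the 57010 genes of the count matrix. Single-cell RNA sequencing had been carried out on cells enriched for live leukocytes from the kidneys of male C57BL/6 mice. The CTRL group had kidneys without surgery. The vehicle groups had renal ischemia/reperfusion injury (IRI) of the left kidney with DMSO and were taken 1, 7 or 14 days later (IRI_D1, IRI_D7 and IRI_D14). The entospletinib groups had the same injury with entospletinib, an inhibitor of the kinase SYK, and were taken on the same days (E_IRI_D1, E_IRI_D7 and E_IRI_D14). The day 1 animals of the entospletinib arm had received only the dose given before surgery. Each of the 7 conditions was 1 pool of 3 mice, and the cells of each pool were spread over 8 sequencing sublibraries. The SD over sublibraries given below therefore measures technical error only, and no single condition can be tested against another.

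Toll-like receptors are membrane proteins that bind molecules released by microbes or by damaged cells. TLR2 and TLR4 act mainly at the cell surface, where CD14 hands lipid ligands to them, whereas TLR7, TLR8, TLR9 and TLR13 sit in endosomes and bind nucleic acids. All of these receptors signal through the adaptor MyD88, which recruits IRAK kinases and leads to activation of NF-κB, and IRAK3 (also called IRAK-M) restrains that step, as is best known from macrophages.

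The members lay on 6 of the chromosomes of mm10 (GRCm38). In the GENCODE vM21 annotation Tlr2 (ENSMUSG00000027995) spanned chr3:83836272-83841767 on the minus strand and Tlr4 (ENSMUSG00000039005) spanned chr4:66827584-66930284 on the plus strand. Tlr7 (ENSMUSG00000044583) spanned chrX:167304929-167330558 and Tlr8 (ENSMUSG00000040522) spanned chrX:167242696-167264329, both on the minus strand and 40599 bases apart. Tlr13 (ENSMUSG00000033777) spanned chrX:106143204-106160493 on the plus strand. Tlr9 (ENSMUSG00000045322) spanned chr9:106222598-106226883 on the plus strand and Myd88 (ENSMUSG00000032508) spanned chr9:119335934-119341411 on the minus strand. Irak3 (ENSMUSG00000020227) spanned chr10:120141648-120202130 on the minus strand. All 9 members were annotated as protein-coding. Myd88 overlapped Acaa1a on the opposite strand and Slc22a14 on its own, and Irak3 overlapped Tmbim4 and the antisense gene Gm47009. Whether the authors' counting used strand is not given in the sources used here, so reads from these overlaps cannot be told apart.

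Upstream sequence is shown for 3 members, to set receptors with high levels in the myeloid classes (Tlr2, Tlr13) beside the adaptor counted in every class (Myd88). RefSeq (GRCm38.p6) gave start sites for 6 of the 9 members. The 250 bases before each start were searched on both strands for GAGGAA (a core bound by PU.1, the myeloid transcription factor), for the core of the interferon-stimulated response element (2 copies of GAAA separated by any 2 bases) and for the NF-κB consensus. The bases printed below end where the first annotated exon after them begins, and capitals mark the match. That of Myd88 lies before the starts of 2 of its 3 annotated transcripts and in the first intron of the other.
Tlr2 (chr3:83841768-83841858, minus strand): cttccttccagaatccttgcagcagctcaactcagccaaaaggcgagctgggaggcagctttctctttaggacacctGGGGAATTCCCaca
Tlr13 (chrX:106143025-106143203, plus strand): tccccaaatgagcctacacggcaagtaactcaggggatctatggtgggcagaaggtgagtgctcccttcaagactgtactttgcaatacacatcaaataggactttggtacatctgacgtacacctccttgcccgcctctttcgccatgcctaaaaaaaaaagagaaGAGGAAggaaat
Myd88 (chr9:119340042-119340268, minus strand): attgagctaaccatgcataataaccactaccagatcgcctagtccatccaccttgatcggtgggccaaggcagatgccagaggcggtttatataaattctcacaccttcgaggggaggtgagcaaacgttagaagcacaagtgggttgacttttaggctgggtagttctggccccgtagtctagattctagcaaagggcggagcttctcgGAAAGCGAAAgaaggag

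The Tlr2 window held 2 overlapping stretches that match the NF-κB consensus at -173 to -163 from the start, of which that at -172 to -163 matches on both strands. The Tlr13 window held GAGGAA at -83 to -78, and the Myd88 window held the interferon-response core at -40 to -31. GAGGAA was also found in the windows of Tlr8 and Tlr9, and none of the 3 motifs was found in that of Irak3. Of 32851 RefSeq windows of the same length, 23.3% held GAGGAA, 7.25% the NF-κB consensus and 2.98% the interferon-response core, so a match is a description of the window only.

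The matrix held 120281 cell barcodes, of which 79389 passed the study's filters as applied here. The paper's own map holds more cells, so the sets differ. The 79389 cells carried 238942003 counts, from 11842327 in E_IRI_D14 to 71691915 in IRI_D1, and 129825 of these counts fell on the 9 members. Median depth was 2071.5 to 2930 counts per cell in 6 pools and 960 in E_IRI_D14. Of the cells that passed the other limits, the limit on ribosomal reads removed 29.02% in E_IRI_D1 and 24.0% in E_IRI_D14, against 4.235% to 12.06% in the other pools. In addition, 13712 well combinations occurred in at least 2 sublibraries, without being repeated within any sublibrary. Clustering gave 36 clusters, of which 27 were named from marker genes in 16 classes, and 8 of the other 9 were left unnamed because over 50% of their cells were called doublets. No member served as a marker, and the members were kept out of the variable genes used for clustering. The classes are called by their markers below (neutrophil-like, macrophage-like and so on). Levels are in CPM, the gene's counts in a class scaled to a common total of all counts of that class, and are compared between cell types within a gene only.

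Tlr2, the receptor for lipoproteins, was counted in every myeloid class and at low levels elsewhere. Over all conditions its level was 215 ± 8.91 CPM (SD over 8 sublibraries) in neutrophil-like cells, 106 ± 5.72 in monocyte-like cells, 104 in nonclassical monocyte-like cells, 90.5 ± 3.49 in macrophage-like cells and 74.0 in type 2 conventional dendritic cell (cDC2)-like cells. Macrophage-like cells, the most numerous class, held 32.48% of all Tlr2 counts and neutrophil-like cells 23.71%. On the log2(CPM + 10) scale the step from cDC2-like to cDC1-like cells averaged 1.56 and was seen in 7 of 7 pools. The neutrophil-like cells were above the nonclassical monocyte-like cells in 6 of 7 pools (mean difference 0.56), and the latter 3 monocyte and macrophage classes did not differ beyond their spread (0.072 and 0.018 between neighbours).

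Tlr4, the receptor for lipopolysaccharide, was the receptor with a clear level outside the leukocytes. It reached 326 ± 23.3 CPM in neutrophil-like cells, 89.8 CPM in monocyte-like cells, 85.2 ± 11.4 CPM in endothelial-like cells, 62.5 CPM in macrophage-like cells and 38.7 CPM in stroma-like cells. Endothelial-like cells held 9.373% of all Tlr4 counts. Weighting the 7 pools equally, the difference between neutrophil-like and endothelial-like cells was 1.29 ± 1.06 (SD over pools, log2 scale) and that between endothelial-like and macrophage-like cells was 0.29 ± 0.24, each in 7 of 7 pools. By pool, monocyte-like cells were above endothelial-like cells only in IRI_D7 and below macrophage-like cells in 5 of 7 pools (0.12), opposite to the order of the summed values, in which IRI_D1 and IRI_D7 hold most of the monocyte-like cells.

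Cd14, the lipid-binding co-receptor, stood at 716 CPM (95% counting interval 704 to 727) in neutrophil-like cells, 184 in monocyte-like cells, 104 in macrophage-like cells and 87.8 in nonclassical monocyte-like cells. Tubule, endothelial and lymphoid classes lay near 10 CPM, with 10.3 CPM in proximal tubule-like cells and 8.73 CPM in T cell-like cells. Neutrophil-like cells were above monocyte-like cells by 1.83 ± 0.52 (log2 scale, 7 of 7 pools), whereas monocyte-like and macrophage-like cells differed by 0.0081. When each cell was thinned to 500 counts, Cd14 was seen in 25.39% of neutrophil-like cells, 7.918% of monocyte-like cells and 4.335% of macrophage-like cells, against 0.4086% of T cell-like and 0.2726% of proximal tubule-like cells. Median depths were 1339, 4282, 2366 and 2396.5 counts in the neutrophil-like, monocyte-like, macrophage-like and proximal tubule-like cells.

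The endosomal receptors had another order of cell types. Tlr7, a receptor for single-stranded RNA, was highest in plasmacytoid dendritic cell (pDC)-like cells at 175 ± 22.3 CPM, followed by nonclassical monocyte-like cells at 116, macrophage-like cells at 95.3, monocyte-like cells at 50.4, B cell-like cells at 23.2 and neutrophil-like cells at 7.68 CPM. The first step was 0.66 ± 0.17 (log2 scale, 7 of 7 pools), while nonclassical monocyte-like and macrophage-like cells did not differ beyond their spread (0.11, 4 of 7 pools). Macrophage-like cells held 53.45% of all Tlr7 counts. Its X-linked neighbour Tlr8, also an RNA receptor, had its highest levels in monocytes and macrophages rather than in pDC-like cells. It measured 44.0 CPM in nonclassical monocyte-like, 36.2 in macrophage-like, 35.4 in monocyte-like, 12.6 in neutrophil-like and 5.10 CPM in pDC-like cells, and the first 3 of these did not differ beyond their spread.

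Tlr9, the receptor for unmethylated CpG DNA, gave 2626 counts over all cells and was the member with the fewest. Its levels were 24.2 CPM in pDC-like cells and 21.7 CPM in macrophage-like cells, which overlapped (0.042 on the log2 scale, 4 of 7 pools), 11.9 in B cell-like cells, 13.4 in cDC2-like cells and 1.21 in neutrophil-like cells. Tlr13, a receptor for bacterial ribosomal RNA, was the endosomal receptor with its highest level in neutrophil-like cells, at 168 ± 12.8 CPM. It followed with 91.1 CPM in nonclassical monocyte-like cells, 79.4 CPM in monocyte-like cells and 46.5 CPM in macrophage-like cells, and measured 7.82 CPM in pDC-like cells, where Tlr7 was highest. The step from monocyte-like to macrophage-like cells was within the spread between pools (0.27 ± 0.37 on the log2 scale), with 37.2 and 37.1 CPM in IRI_D7 and 35.7 and 41.9 CPM in IRI_D14.

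Myd88, the shared adaptor, was counted in all 16 classes. It was 67.3 CPM in neutrophil-like cells, 50.1 in monocyte-like, 48.6 in nonclassical monocyte-like, 38.5 in cDC2-like and 22.7 in macrophage-like cells, and 9.38 CPM in proximal tubule-like and 17.1 CPM in endothelial-like cells. Irak3 stood at 390.4 ± 23.3 CPM in neutrophil-like cells, 150.3 ± 15.2 in nonclassical monocyte-like cells and 118 ± 11.7 in B cell-like cells. The B cell-like level was not below that of the nonclassical monocyte-like cells beyond its spread (0.052, 4 of 7 pools), and it was above monocyte-like cells by 0.45 ± 0.16 in 7 of 7 pools. Macrophage-like cells followed at 49.4 CPM and endothelial-like cells at 36.4 CPM. At 500 counts per cell, Irak3 was seen in 5.515% of B cell-like cells against 0.7355% of T cell-like and 0.4998% of proximal tubule-like cells.

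These orders were tested by an exact two-sided permutation (sign-flip) test over the 7 pools for 135 pairs of neighbouring classes. With 7 pools its p cannot go below 0.015625, and the lowest value after Benjamini-Hochberg adjustment was 0.132, so no step passed after adjustment, including those seen in 7 of 7 pools.

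**Figure D1:**
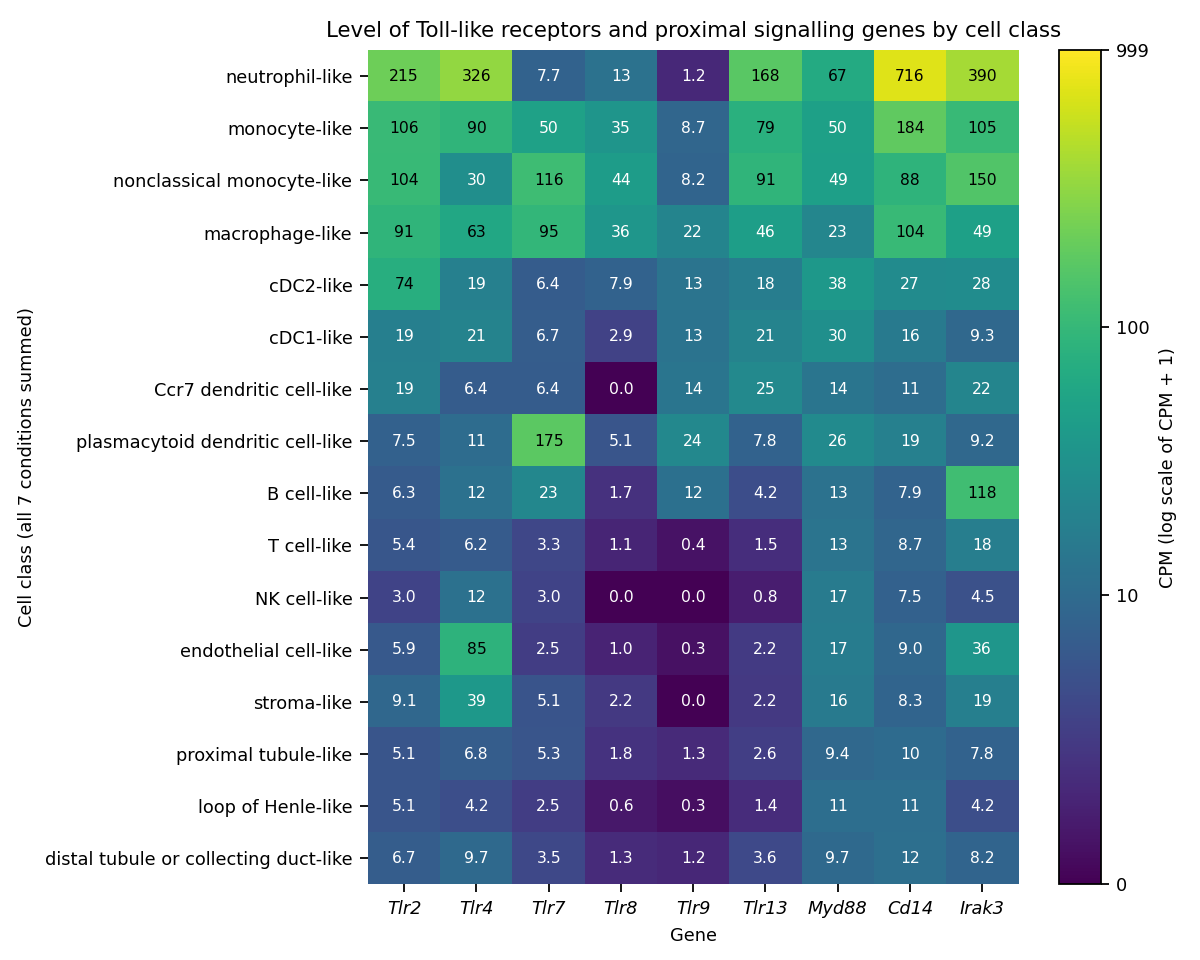
Heat map of the level (CPM, logarithmic colour scale) of the 9 members in the 16 marker-named classes, all conditions summed. Neutrophil-like cells hold the highest values of Tlr2, Tlr4, Tlr13, Myd88, Cd14 and Irak3, whereas Tlr7 peaks in pDC-like cells (175 CPM) and Tlr4 has a value in endothelial-like cells (85.2 CPM).

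In macrophage-like cells Cd14 and Tlr2 stood higher at day 1 of injury than in CTRL. Cd14 was 62.5 CPM in CTRL, 241, 69.7 and 95.5 CPM in the vehicle pools at days 1, 7 and 14, and 182, 53.9 and 51.6 CPM in the entospletinib pools on those days. Both day 1 pools were above every other pool, and the vehicle pool exceeded the entospletinib pool on each of the 3 days. The log2 ratio of IRI_D1 over CTRL was 1.95 ± 0.20 (SD over 8 sublibraries, all 8 above 0). Tlr2 was 63.0 CPM in CTRL, 135, 74.5 and 103 in the vehicle pools and 115, 69.0 and 62.0 in the entospletinib pools. Again the vehicle pool was the higher on each day, and the ratio of IRI_D1 over CTRL was 1.095 ± 0.12. Tlr4 had no such pattern, with 68.5 CPM in CTRL and 55.0 to 73.4 CPM in the 6 injured pools.

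The endosomal receptors of macrophage-like cells differed from each other over time. Tlr13 was 40.7 CPM in CTRL, 84.3, 37.1 and 41.9 in the vehicle pools and 58.8, 37.6 and 28.6 in the entospletinib pools, so that day 1 was the highest day in both arms (ratio of IRI_D1 over CTRL 1.05 ± 0.16). Tlr8 was 25.1 CPM in CTRL, 22.8, 35.3 and 53.4 in the vehicle pools and 16.9, 35.0 and 41.1 in the entospletinib pools. It was thus highest at day 14 in both arms, with a ratio of IRI_D14 over CTRL of 1.09 ± 0.21 (all 8 sublibraries above 0). Tlr7 was 122 CPM in CTRL and below this in every injured pool, at 92.9, 76.3 and 90.8 under vehicle and 69.4, 99.0 and 104 under entospletinib. Tlr9 was 24.1 CPM in CTRL, 14.8, 18.8 and 28.5 in the vehicle pools and 15.3, 19.5 and 12.3 in the entospletinib pools.

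Myd88 ranged from 18.3 to 28.7 CPM over the 7 pools in macrophage-like cells. Irak3 was 50.0 CPM in CTRL, 38.7, 37.8 and 62.9 in the vehicle pools and 46.5, 41.4 and 41.4 in the entospletinib pools. For comparison, the log2 ratio over all genes at 50 CPM or more had a median of 0.16, -0.31 and -0.09 for the vehicle pools over CTRL at days 1, 7 and 14, and 9.31% of 3534 such genes were over 2-fold higher at day 1. Relative to that median, Cd14 was 1.79, Tlr2 0.94 and Tlr13 0.89 at day 1, and Tlr8 was 1.18 at day 14. Thinned to 500 counts, Cd14 was seen in 3.003% of CTRL macrophage-like cells, 10.81%, 3.197% and 3.881% in the vehicle pools and 7.937%, 2.533% and 2.687% in the entospletinib pools. Unthinned shares were 15.7%, then 45.44%, 18.57% and 17.9%, then 26.9%, 13.95% and 4.425%, and 398 shallow E_IRI_D14 cells were left out of the thinned value.

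**Figure D2:**
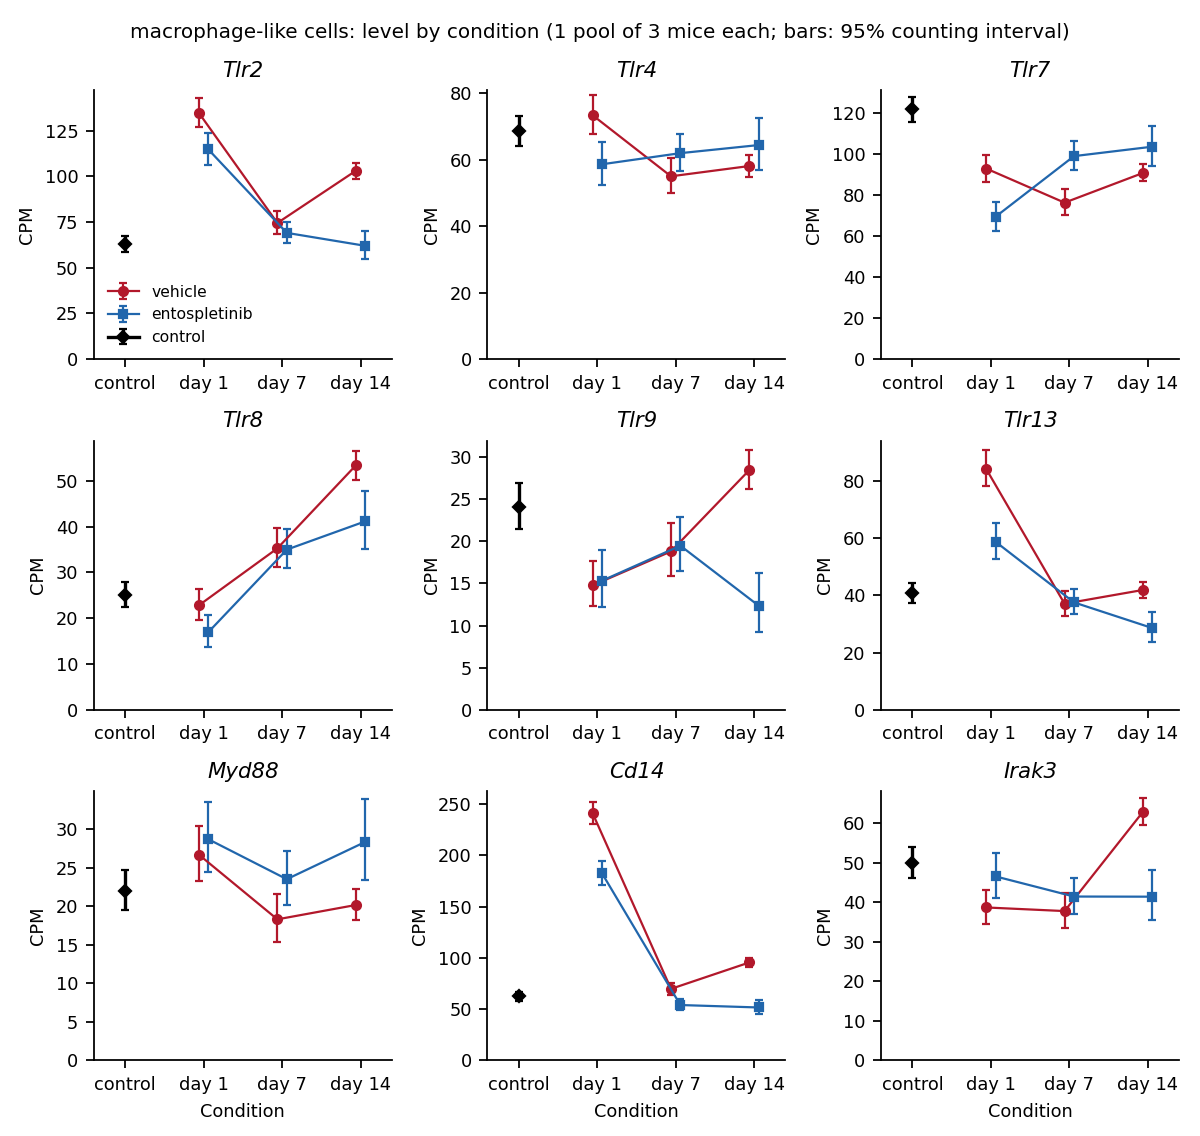
Level (CPM) of each of the 9 members in macrophage-like cells in the 7 pools, with 95% Poisson intervals as bars that cover counting error only. Cd14, Tlr2 and Tlr13 are highest in IRI_D1, and Tlr8 is highest in IRI_D14 (53.4 CPM).

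The make-up of the macrophage-like class changed between pools along with these levels. Of its 4 clusters, cluster 8 (led by Nes, Ch25h, Cd36, Plau and Ccl4) held 90.0% of the class in IRI_D1 and 81.2% in E_IRI_D1, and 1.5% to 5.3% in the 4 later pools. Cluster 5 (led by Cd83, Fosb, Rasgef1b and Atf3) held 31.85% and 35.2% in the vehicle pools of days 7 and 14, against 18.25% and 10.98% under entospletinib. Cluster 3, with a median depth of 1103 counts against 3073 in cluster 1, held 82.2% of the class in E_IRI_D14 and 25.88% in IRI_D14. Over all pools Cd14 was 48.9 CPM in cluster 1, 44.5 in cluster 3, 151 in cluster 5 and 206 in cluster 8, and Tlr2 was 53.8, 52.3, 156 and 121 CPM. The 2 clusters with the higher Cd14 and Tlr2 were thus the main cluster of the day 1 pools (cluster 8) and the cluster whose share was larger under vehicle than under entospletinib at days 7 and 14 (cluster 5). Within cluster 5, Cd14 was 88.9 CPM in CTRL, 319, 126 and 175 in the vehicle pools and 430 (60 counts), 76.8 and 134 in the entospletinib pools. Within cluster 1 it was 56.6 CPM in CTRL, 103, 36.3 and 43.9 under vehicle and 111, 47.4 and 40.5 under entospletinib. Tlr7 in cluster 1 was 125 CPM in CTRL and 158 CPM (52 counts) in IRI_D1, so its lower level in IRI_D1 was not seen there, and was 82.0 and 88.8 CPM in IRI_D7 and IRI_D14. Tlr8 was higher at day 14 within cluster 1 as well, at 63.4 CPM in IRI_D14 and 50.6 in E_IRI_D14 against 26.0 CPM in CTRL.

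Markers of other cell types were checked in the same macrophage-like cells. The summed level of 8 of 8 neutrophil markers was 162 CPM in CTRL, 210, 176 and 248 in the vehicle pools and 171, 148 and 177 in the entospletinib pools, and that of 7 of 7 monocyte markers was 271 CPM in CTRL, 252, 578 and 571 in the vehicle pools and 209, 580.0 and 315 in the entospletinib pools. The monocyte sum was thus higher under vehicle than under entospletinib at day 14, the day with the lowest Cd14 ratio. No defining marker of either list was at 0. T cell markers summed to 3.97 to 14.3 CPM and proximal tubule markers to 37.0 to 80.1 CPM. The part of these cells in the Cd14 and Tlr2 levels was not tested.

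**Figure D3:**
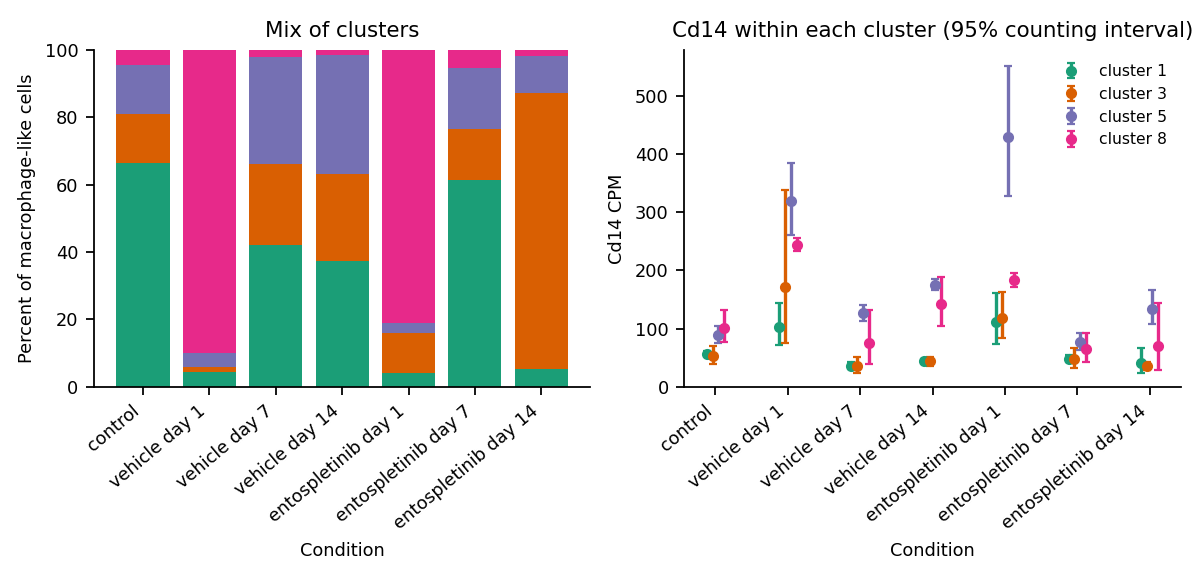
Left, percent of macrophage-like cells in clusters 1, 3, 5 and 8 in each of the 7 pools. Right, Cd14 level (CPM) in each of these clusters in each of the 7 pools, with 95% Poisson intervals. Cluster 8 fills the day 1 pools. Summed over all pools, which is not plotted, clusters 5 and 8 hold the higher Cd14 levels (151 and 206 CPM against 48.9 and 44.5).

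To ask whether SYK inhibition altered the members, the 6 injured pools were fitted together with day as a block (edgeR quasi-likelihood test, 3 entospletinib against 3 vehicle pools). In macrophage-like cells Cd14 fell with entospletinib by 0.67 on the log2 scale (SE 0.13, adjusted p 0.0159 by edgeR), and the entospletinib pool was lower on 3 of 3 days. It was the only one of the 9 members called, at a background of 2.7% of 13501 genes called (1.96% lower). Tlr13 (-0.48, SE 0.12, adjusted p 0.0574), Tlr2 (-0.49, SE 0.13, adjusted p 0.0768), Tlr8 (-0.41, SE 0.13, adjusted p 0.118) and Tlr9 (-0.50, SE 0.22, adjusted p 0.290) had negative values that did not pass. Tlr4 (-0.14), Irak3 (-0.21), Tlr7 (-0.08) and Myd88 (0.19) did not pass either. The median over the 9 members was -0.41, with 8 of 9 negative, against 0.012 over all genes tested. The Cd14 call was kept in 8 of 14 alternatives, with values from -0.88 to 0.047 and adjusted p from 8.15e-05 to 1.0. It was lost without day 14 (-0.52, adjusted p 0.211), without the day block (-0.55) and in each of the 4 clusters taken alone, at 0.047 in cluster 1, -0.28 in cluster 3, -0.39 in cluster 5 and -0.46 in cluster 8.

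By day, the ratio of entospletinib over vehicle for Cd14 in macrophage-like cells was -0.40 ± 0.33, -0.37 ± 0.40 and -0.89 ± 0.33 (log2, SD over 8 sublibraries) at days 1, 7 and 14. The median ratio of all genes at 50 CPM or more was -0.11, 0.33 and 0.08 on these days, and relative to it Cd14 was -0.29, -0.70 and -0.97. Tlr2 relative to that median was -0.12, -0.44 and -0.81. Tlr9 was -1.21 ± 0.38 at day 14 (all 8 sublibraries below 0), while at days 1 and 7 its levels in the arms were close. Tlr7 was lower at day 1 (-0.42 ± 0.22) and higher at day 7 (0.38 ± 0.31), but relative to the median the day 7 value was 0.042.

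**Figure D4:**
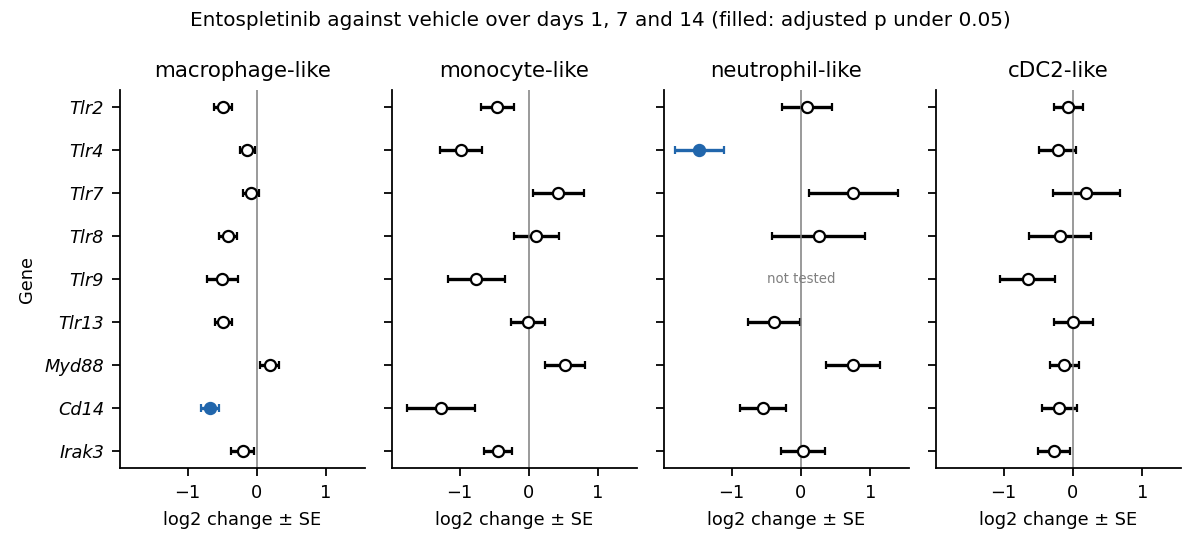
Log2 change of each member with entospletinib over vehicle, fitted over the 6 injured pools with day as a block, in macrophage-like, monocyte-like, neutrophil-like and cDC2-like cells. Bars are ± SE and filled points have an adjusted p under 0.05, which are Cd14 in macrophage-like cells (-0.67) and Tlr4 in neutrophil-like cells (-1.47).

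In neutrophil-like cells Tlr4 was the member that differed most between arms. Neutrophil-like cells made up 0.6227% of CTRL cells, 37.72%, 29.31% and 11.65% of the vehicle pools and 21.2%, 1.749% and 0.4551% of the entospletinib pools. The CTRL, E_IRI_D7 and E_IRI_D14 values below therefore rest on 66, 117 and 42 cells. Tlr4 was 78.4 CPM (7 counts) in CTRL, 309, 643 and 289 CPM in the vehicle pools and 178, 98.2 (19 counts) and 196 CPM (5 counts) in the entospletinib pools. The vehicle pool was the higher on each day, and IRI_D7 stood above all others. Thinned to 500 counts, Tlr4 was seen in 3.125% of CTRL neutrophil-like cells, 12.59%, 23.29% and 12.02% under vehicle and 8.179%, 5.983% and 9.375% under entospletinib. Entospletinib over vehicle gave a log2 ratio of -0.80 ± 0.28 at day 1 and -2.71 ± 1.85 at day 7, both below 0 in all 8 sublibraries.

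Over the 6 injured pools Tlr4 fell in neutrophil-like cells by 1.47 on the log2 scale (SE 0.35, adjusted p 0.0104 by edgeR's quasi-likelihood test), lower on 3 of 3 days and at a background of 0.562% of 9256 genes called (0.367% lower). Of the other members tested, Cd14 (-0.54, adjusted p 0.946), Tlr13 (-0.39), Tlr2 (0.08), Irak3 (0.04) and Myd88 (0.75, adjusted p 0.775) did not pass, and Tlr9 had too few counts to be tested. The Tlr4 call was kept in 6 of 11 alternatives, with values from -2.08 to -0.76 and adjusted p from 1.39e-05 to 0.604. It was lost with DESeq2 (adjusted p 0.0885), without the day block (adjusted p 0.604), without day 1 (-2.08, adjusted p 0.0979), without day 7 (-0.76, adjusted p 0.544) and in cluster 10 alone (-1.14, adjusted p 0.581).

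The neutrophil-like class also changed in make-up. Cluster 0 (led by S100a9, Hdc and Cxcr2) held 98.1% of it in IRI_D1, 25.7% in IRI_D7 and 26.7% in IRI_D14, and 97.2%, 84.6% and 52.4% in the entospletinib pools, the rest being cluster 10 (led by Il1a, Il1rn, Mmp9, Ptgs2 and Ikbke). Within cluster 0 it was 307, 694 and 299 CPM in the vehicle pools and 177, 90.2 (15 counts) and 73.9 CPM (1 count) in the entospletinib pools. The test in cluster 0 alone gave -1.72 (adjusted p 0.0106 by edgeR). Within cluster 10 it was 437, 610 and 284 CPM in the vehicle pools, so that cluster 10 was above cluster 0 at day 1 and below it at days 7 and 14. The entospletinib values of cluster 10 rested on 9, 4 and 4 counts. Macrophage markers in neutrophil-like cells summed to 213 CPM in CTRL, 389, 371 and 615 CPM under vehicle and 438, 475 and 354 CPM under entospletinib, with none of 8 at 0. Neutrophil markers summed to 19820 CPM in CTRL and were lowest in IRI_D7, at 9485 CPM.

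The other members of neutrophil-like cells were described by pool. Cd14 was 168 CPM (15 counts) in CTRL, 843, 477 and 233 CPM under vehicle and 693, 202 and 314 CPM (8 counts) under entospletinib, so that the day 1 pools were the highest in both arms. Within the vehicle pools Cd14 was 844, 532 and 304 CPM in cluster 0 and 733, 442 and 197 CPM in cluster 10, and thus lower in cluster 10 in 3 of 3 pools. Tlr2 was 254, 85.6 and 104 CPM under vehicle and 228, 119 and 118 CPM (3 counts) under entospletinib, and Tlr13 was 196, 111 and 84.8 CPM under vehicle and 147, 98.2 and 39.3 CPM (1 count) with entospletinib. Irak3 ranged from 298 to 550 CPM over the 7 pools. Myd88 was 66.9, 51.4 and 50.5 CPM under vehicle and 97.0, 87.8 and 157 CPM (4 counts) under entospletinib.

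**Figure D5:**
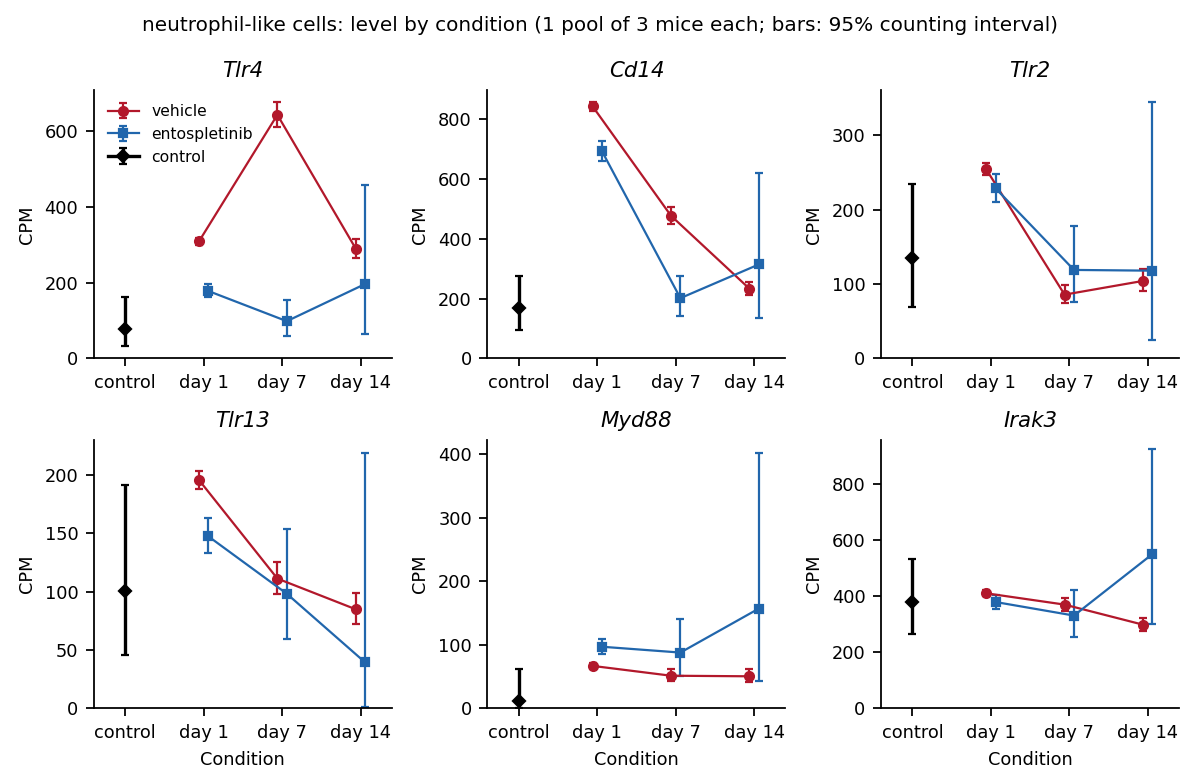
Level (CPM) of Tlr4, Cd14, Tlr2, Tlr13, Myd88 and Irak3 in neutrophil-like cells in the 7 pools, with 95% Poisson intervals that cover counting error only. Tlr4 is highest in IRI_D7 (643 CPM) and Cd14 in IRI_D1 (843 CPM), and the wide bars of CTRL, E_IRI_D7 and E_IRI_D14 reflect 66, 117 and 42 cells.

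In monocyte-like cells the vehicle pools were above the entospletinib pools for Tlr4 and Cd14 at days 1 and 7 and close to them at day 14. Tlr4 was 31.1 CPM in CTRL, 94.2, 142 and 38.3 CPM under vehicle and 52.4, 54.7 and 37.4 CPM under entospletinib. Cd14 was 59.9 CPM in CTRL, 197, 236 and 67.6 CPM under vehicle and 133, 37.1 (21 counts) and 54.4 CPM (16 counts) under entospletinib. In the fit over injured pools neither passed (Tlr4 -0.98, SE 0.30, adjusted p 0.738 and Cd14 -1.26, SE 0.49, adjusted p 0.763 by edgeR). No gene of 9434 was called in this class, although 590 had an unadjusted p under 0.05 and DESeq2 called 2. Without the filter on low counts both genes passed (Tlr4 adjusted p 0.0361, Cd14 adjusted p 0.00235).

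Outside these classes, Irak3 in B cell-like cells was 121 CPM in CTRL, 165, 140 and 132 CPM under vehicle and 112, 104 and 73.0 CPM under entospletinib. The entospletinib pool was the lower on 3 of 3 days, and the change of -0.67 (SE 0.17) had an unadjusted p of 0.00172 but an adjusted p of 0.255 by edgeR, with 0.0129% of 7730 genes called. In endothelial-like cells Tlr4 was 74.2 CPM in CTRL, 109, 63.3 and 67.6 CPM under vehicle and 103, 77.1 and 67.0 CPM under entospletinib. The day 1 pools of both arms were the highest, and the arms differed by 0.02 (SE 0.15) on the log2 scale, at a background of 0.0176% of 11342 genes called. Tlr7 in pDC-like cells was 182 CPM in CTRL, 188, 117 and 191 CPM under vehicle and 157, 170 and 160 CPM under entospletinib, and no test was made there. In cDC2-like cells none of the members was called (0.74% of 9460 genes were, 0.423% of the genes lower). There 0 of 9 had an unadjusted p under 0.05 by edgeR, against 11.1% of the 9460 genes, and DESeq2 gave an adjusted p for Tlr2 only (0.995). Lymphoid and tubule classes gave a rough measure of free RNA and of mixed cells, which differed between pools. In the IRI_D7 pool, where Tlr4 was highest in neutrophil-like cells, it was 2.23 CPM (1 count) in T cell-like, 4.08 CPM (2 counts) in proximal tubule-like, 9.54 CPM (3 counts) in B cell-like and 16.9 CPM (3 counts) in natural killer cell-like cells. It was 37.0 CPM in cDC1-like and 42.3 CPM in pDC-like cells, which became 9.005 and 8.28 CPM when called doublets were removed. In IRI_D14 Tlr4 was higher in proximal tubule-like cells, at 42.9 CPM (23 counts), and 19.8 CPM when called doublets were removed.

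Summed over all cells of a pool, as bulk RNA would show it, Cd14 was 29.5 CPM in CTRL, 284, 134 and 70.2 CPM under vehicle and 156, 29.8 and 27.4 CPM under entospletinib. Tlr4 was 44.3 CPM in CTRL, 117, 135 and 50.9 CPM under vehicle and 59.0, 44.1 and 36.0 CPM under entospletinib. In such sums fewer cells of a type and less RNA per cell cannot be told apart, and the share of neutrophil-like cells given above moved with them.

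Other genes of the pathway were counted from 8 lists. In macrophage-like cells 3 lists of downstream genes held calls, and every call was lower with entospletinib. Over all genes of this class 2.7% were called and 1.96% were called lower. Of 11 negative regulators, 10 were tested and 2 fell. These were Tnfaip3, which encodes the ubiquitin-editing enzyme A20 (-0.79, SE 0.13, adjusted p 0.00613), and Dusp1, a phosphatase of MAP kinases (-0.55, SE 0.12, adjusted p 0.0246). Within single clusters neither passed, and Dusp1 was 0.15 and 0.22 in clusters 1 and 3. Of 12 inflammatory target genes, 10 were tested and 2 fell. Ptgs2, which encodes cyclooxygenase-2, was 23.7 CPM in CTRL, 110, 110 and 113 CPM under vehicle and 54.8, 35.4 and 53.5 CPM under entospletinib (-1.38, SE 0.16, adjusted p 0.000962). The neutrophil chemoattractant Cxcl2 was 45.2 CPM in CTRL, 661, 175 and 124 CPM under vehicle and 439, 84.5 and 105 CPM under entospletinib (-0.76, SE 0.17, adjusted p 0.0284). Within clusters 1 and 5 alone Cxcl2 was 0.13 and 0.18, and neither Ptgs2 nor Cxcl2 passed in any of the 4 clusters alone. Of the 7 transcription factors, 1 fell, the NF-κB subunit Rel (-0.72, SE 0.14, adjusted p 0.0124 by edgeR), which passed in none of the 4 clusters alone.

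In macrophage-like cells 4 lists held no call. Of the other Toll-like receptors (5 of 6 tested), the co-receptors and chaperones (6 of 7 tested), the other adaptors (3 of 4 tested) and the kinases (14 of 14 tested), 0 were called, at the 2.7% background of edgeR calls given above. DESeq2 called 0 of them as well. The numbers with an unadjusted p under 0.05 by edgeR were 1, 0, 2 and 0 in these lists, against 15.8% of all 13501 genes tested. The chaperone Unc93b1, which carries the endosomal receptors, changed by 0.26 (adjusted p 0.318). The list medians were -0.003, 0.06, -0.46 and -0.07 for these 4 lists, against -0.43 for the negative regulators and -0.40 for the targets. Of 8 genes for damage-associated ligands, 7 were tested and 1 fell, the matrix gene Fn1 (-1.71, SE 0.25, adjusted p 0.00325 by edgeR). Fn1 was 7.22 CPM in CTRL, 47.1, 345 and 305 CPM under vehicle and 31.0, 90.7 and 77.7 CPM under entospletinib. Over all pools it was 2511 CPM in monocyte-like cells, against 159 in macrophage-like and 141 in cDC2-like cells. Monocyte-like cells made up 22.03%, 9.955% and 1.579% of the vehicle pools and 11.73%, 2.542% and 2.037% of the entospletinib pools. The part of monocyte RNA in the Fn1 change was not tested. Of these 6 called genes, the calls of Dusp1 and Cxcl2 were kept in 6 and 5 of 14 alternatives and those of the others in 8 to 11.

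In neutrophil-like cells 3 genes of these lists were called, 1 of 14 kinases tested, 1 of 7 transcription factors and 1 of 6 damage ligands, at a background of 0.562% of 9256 genes. Ikbke, an NF-κB and interferon pathway kinase that was among the leading genes of cluster 10, fell (-1.49, SE 0.41, adjusted p 0.0494), as did Nfkb1 (-1.16, SE 0.32, adjusted p 0.0451). S100a9, a subunit of the TLR4 ligand calprotectin and a leading gene of cluster 0, rose (1.20, SE 0.32, adjusted p 0.0418 by edgeR). It was 6332, 1704 and 1420 CPM under vehicle and 12533, 2651 and 7188 CPM under entospletinib. DESeq2 called S100a9 (adjusted p 0.0401) but not Ikbke (0.564) or Nfkb1 (0.0772). These 3 calls were kept in 3 to 4 of 11 alternatives, and Ikbke was 0.035 without day 7. In cDC2-like cells Fn1 fell (-2.15, SE 0.28, adjusted p 0.000182 by edgeR), with an adjusted p of 0.246 by DESeq2. The part of monocyte RNA in this Fn1 change was not tested either.

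Of the receptors that were not members, Tlr3, the receptor for double-stranded RNA, was 215 CPM in cDC1-like cells and 34.4 CPM in endothelial-like cells, and Tlr11 was 55.5 CPM in cDC1-like cells. Tlr6, a partner of TLR2, was 23.7 CPM in neutrophil-like cells, its highest class, and Tlr1, another partner, was 60.4 CPM in macrophage-like cells and 44.9 CPM in B cell-like cells. Unc93b1 was 636 CPM in pDC-like cells and 544 CPM in macrophage-like cells, and Irak2 was 1617 CPM in neutrophil-like cells.

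The genes whose pattern was most like each member were ranked by Pearson's r of log2 levels over 112 sums (16 classes in 7 pools) among 6838 genes. This is a description, since the sums share pools, sublibraries and depth. The nearest genes were Pilra for Tlr2 (r = 0.895), Ets2 for Tlr4 (r = 0.810), Lair1 for Tlr7 (r = 0.878), Lyz2 for Tlr8 (r = 0.904), Ly86 for Tlr9 (r = 0.829), Igsf6 for Tlr13 (r = 0.890), Ptpre for Myd88 (r = 0.759), C5ar1 for Cd14 (r = 0.910) and Cyp4f18 for Irak3 (r = 0.874). Among the members themselves, Tlr2 and Tlr13 were most alike (r = 0.889), Cd14 was nearest to Tlr2 (r = 0.840) and Tlr4 to Cd14 (r = 0.702). The r of Tlr7 and Tlr9 was 0.668.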

How the data were processed

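Single-cell libraries (Parse Evercode WT) had been demultiplexed, aligned to mm10 and collapsed to transcripts by the authors (Parse pipeline v1.1). The deposited file holds raw counts per gene and cell, with a cell table that names the condition and a gene table. GEO's samples each mix all conditions, so conditions came from the cell table. Cells with more than 300 genes, fewer than 20000 counts, under 25% mitochondrial and under 1.5% ribosomal counts were kept, after the study's methods, with genes seen in at least 5 cells. Cells were clustered on 4000 variable genes and 40 principal components (numpy 2.4.6, 15 neighbours, Leiden resolution 1, leidenalg 0.10.2). The members, the other pathway genes, and mitochondrial and ribosomal genes were left out of the variable genes. Of 28 clusters, 2 with markers of 2 classes were split again at resolution 0.3, which gave 36. A cluster was named when at least 3 markers of a class were among its 100 leading genes, at most 1 marker of another class was among its 10 leading genes, it was not shallow in depth without such a marker among those 10, and at most 50% of its cells were called doublets. Called doublets were kept within named clusters, and removing them was an alternative.

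Counts were summed per class, pool and sublibrary. Levels are CPM with exact Poisson 95% intervals and an SD over 8 sublibraries. Ratios add 0.5 counts per sublibrary, shares use cells thinned to 500 counts, and the order of classes uses log2(CPM + 10). The treatment test was edgeR 4.0.16 (quasi-likelihood, TMM, day and treatment, R 4.3.3), adjusted by Benjamini-Hochberg over all genes of the class. It was first tested on simulated data. DESeq2 1.42.0, no low-count filter, no day block, other cell filters, a per-cell marker gate, single clusters and leaving out days were alternatives, of which the single-cluster fits were chosen after seeing the data. Genes were named as all 9 members, then the called genes and those with the largest changes at 20 CPM or more within each list. The members and lists were chosen with earlier results of these data known. Replicate animals were pooled, so p-values measure the spread between pools over days.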

Additional observations from a re-analysis of the deposited data

Results flagged for a closer look

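In macrophage-like cells, the log2 ratio of entospletinib over vehicle for Tlr7 was -0.421 at day 1, below 0 in 8 of 8 sublibraries, and 0.376 at day 7, above 0 in 8 of 8 sublibraries. Tlr7 was picked out because every sublibrary moved one way at day 1 and the other way at day 7. The difference between days was not tested, since each condition was 1 pool. With TMM scaling the values were -0.41 and 0.07, so the day 7 value was near 0 under that scaling.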

How the results depend on the processing

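The fit paired the arms by day through its day block, and the pools carried no replicate number. Of the alternatives to the fits over days, 419 of 436 values for members kept their direction and side of the threshold, 6 passed only in the alternative, 10 no longer passed and 1 reversed. Of 3044 ratios between pools 2990 moved by less than the spread between sublibraries and 2 reversed. Cd14 in macrophage-like cells was 0.047 in cluster 1 alone (edgeR). In the largest cluster of that class alone, Tlr7 in IRI_D1 over CTRL was 0.34 and Cd14 in IRI_D14 over CTRL was -0.37. Dusp1 was 0.15 and 0.22 in clusters 1 and 3, Cxcl2 was 0.13 and 0.18 in clusters 1 and 5, and Ikbke in neutrophil-like cells was 0.035 without day 7 and -4.33 without day 1. The cause was not tested.

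Genes called in macrophage-like cells numbered 365, and 752 without the low-count filter, 0 without the day block, 41, 46, 18 and 15 in clusters 1, 3, 5 and 8 alone, and 54 to 704 when a day was left out. In monocyte-like cells they numbered 0, and 2 with DESeq2, 177 without the filter and 0 to 76 without a day. In neutrophil-like cells they numbered 52, and 22 with DESeq2, 0 without the day block, 169 with gated cells, 31 and 0 in clusters 0 and 10, and 24 to 62 without a day. In cDC2-like cells they numbered 70, and 12 with DESeq2, 121 without the filter, 0 without the day block, 18 without doublets, 139 without the ribosomal limit, 45 at 1000 counts or more, 0 with gated cells and 15 to 176 without a day. In B cell-like cells they numbered 1, and 0 with DESeq2, 55 without the filter, 18 without doublets, 12 without the ribosomal limit, 11 at 1000 counts or more, 10 with gated cells and 2 to 14 without a day. In endothelial-like cells they numbered 2, and 11 with DESeq2, 133 without the filter, 0 without the day block, 19 without doublets, 1 at 1000 counts or more, 4 with gated cells and 1 to 218 without a day. The fit at 1000 counts or more was not run for neutrophil-like cells. Tlr2 in macrophage-like cells passed without day 1 (-0.67, adjusted p 0.00864) and Tlr13 without day 7 (-0.58, adjusted p 0.0426), and both passed without the low-count filter (adjusted p 0.0129 and 0.0227 by edgeR). Shares of cells moved most with depth, 207 of 288 by more than the spread.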

Other observations

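Of the 36 clusters, 9 with 4387 cells were left unnamed and entered no class. In 8 of them 63.64% to 98.93% of cells were called doublets, which kept them unnamed whatever their markers, against 2.057% in cluster 14. Of these 8, cluster 15 had 7 neutrophil markers and cluster 26 had 8 B cell markers among its 100 leading genes. Cd14 was 204 CPM in cluster 15 (1125 cells, 98.93% called doublets), 137 CPM in cluster 26 and 101 CPM in cluster 31. In cluster 14 (1167 cells) Cd14 was 32.4 CPM and Tlr2 was 14.2 CPM.

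Of the receptors outside the 9 members, Tlr5, the flagellin receptor, was 30.2 CPM in monocyte-like and 22.6 CPM in neutrophil-like cells, and Tlr12 was 25.5 CPM in pDC-like cells. Lbp, which encodes the lipopolysaccharide-binding protein that delivers ligand to CD14, was 25.2 CPM in endothelial-like cells. Ifnb1, the gene of interferon beta, had 1 count in macrophage-like cells, 2 in cDC2-like cells and 1 in Ccr7 dendritic cell-like cells, and 0 in the other classes.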
